A study of Mus musculus with 6 samples.

Results

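The 7 genes described here, of 32285 genes counted, encode the contractile apparatus of smooth muscle and of myofibroblasts: Acta2, Actg2, Tagln, Cnn1, Myh11, Myl9 and Des. They were chosen by name, for what they are known to do, and not by a measured value. All were measured in single cells of the right lung of 6 male mice, 12 weeks old, of the hCTLA4 strain, in which exon 2 and exon 3 of CTLA4 are human on a C57BL/6 background. Every mouse had received bleomycin at 1.25 U per kg in 2 doses given 2 weeks apart. From day 21 after the second dose it received either isotype control IgG1 (3 mice) or the CTLA4 antibody ipilimumab at 5 mg per kg (3 mice). Both were injected into the abdomen over 4.5 weeks. No uninjured mouse was analysed here, so a level after bleomycin cannot be set against a level before it. Each mouse gave 1 library made with 10x Genomics 3' chemistry and each test counted mice, not cells.

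Bleomycin injures the lung epithelium and leaves scars in which some fibroblasts take up a contractile program and are then called myofibroblasts. α-Smooth muscle actin, the product of Acta2, is the usual protein marker of those cells. It is also a main protein of the smooth muscle around airways and vessels, and some pericytes, the cells wrapped around capillaries, make it. Several genes of the program are switched on by serum response factor together with its muscle partner myocardin, at a short DNA element called the CArG box.

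The CArG boxes near the start sites are shown because they are a known sequence feature of these genes and the choice of genes did not use them. A 300-base window, 250 bases before to 50 bases after the RefSeq start, could be read for Acta2, Cnn1, Myl9 and Des (GRCm38.p6). The element was searched as CC, then 6 letters, then GG, with A or T at all 6 (an exact match) or at 5 or more of the 6. It reads the same way on both strands. Acta2 and Myl9 each held 2 matches, and Cnn1 and Des held 0. Of 32851 windows of this length, 9.98% held at least 1 match, 0.822% held at least 2, and 1.63% held an exact one. The 10 letters of each match are in capitals below, with 10 bases on either side, 5' to 3' on the gene's own strand.
Acta2 (chr19:34255438-34255467, minus strand, first capital at -84 from the RefSeq start): gtgctgaggtCCCTATATGGttgtgttaga
Acta2 (chr19:34255388-34255417, minus strand, first capital at -34): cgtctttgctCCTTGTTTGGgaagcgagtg
Myl9 (chr2:156775293-156775322, plus strand, first capital at -161 from the RefSeq start): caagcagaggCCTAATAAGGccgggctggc
Myl9 (chr2:156775355-156775384, plus strand, first capital at -99): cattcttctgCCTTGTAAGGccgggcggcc
One of the 4, the first of Myl9, was an exact match. A match is a description of the letters and was not tested as a binding site.

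The libraries held 37666042 to 48612412 unique molecular identifiers (UMIs, each 1 captured transcript), and 3268 to 4348 barcodes per mouse were used as cells (24258 in all). Cells were clustered without the 7 genes and named by likeness to marker genes. The library of ipilimumab mouse 1 stood apart, with 22056 barcodes of at least 100 UMIs against 4834 to 6230 in the others, and with 78.9% of its UMIs in called cells against 92.4% to 93.1%. Pairs of libraries shared from 0 to 8 cell barcodes. Every library held UMIs of Sftpc, Scgb1a1, Ager and Cldn5, which mark type 2, airway, type 1 and endothelial cells. IgG1 mouse 3 was low in alveolar epithelium, with 94 Sftpc UMIs against 10051 to 80000 in the others and 75 of Ager against 251 to 689.

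Acta2 (ENSMUSG00000035783; GRCm38 chromosome 19, 34241090 to 34255590, minus strand) was a rare transcript in these suspensions. It gave 114, 197 and 169 UMIs over all barcodes of IgG1 mice 1, 2 and 3 and 258, 140 and 214 of ipilimumab mice 1, 2 and 3, or 4.0 CPM (counts-per-million) over all libraries. Of these 1092 UMIs, 930 (85.2%) lay in used cells, 87 (7.97%) in uncalled barcodes of fewer than 100 UMIs and 41 (3.75%) in uncalled barcodes with more. Fibroblast-like cells held 472 of the 930 (50.8%), neutrophil-like cells 243 (26.1%), alveolar macrophage-like cells 109 (11.7%), monocyte-like cells 33 (3.55%), pericyte-like cells 23 (2.47%) and endothelial-like cells 5 (0.538%). These pooled shares do not give the order in each mouse. Neutrophil-like cells held more than fibroblast-like cells in IgG1 mice 1 and 2 and less in the other 4 mice, and in ipilimumab mouse 2 alveolar macrophage-like cells (31.6%) came second, before neutrophil-like cells (18.8%).

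**Figure D1:**
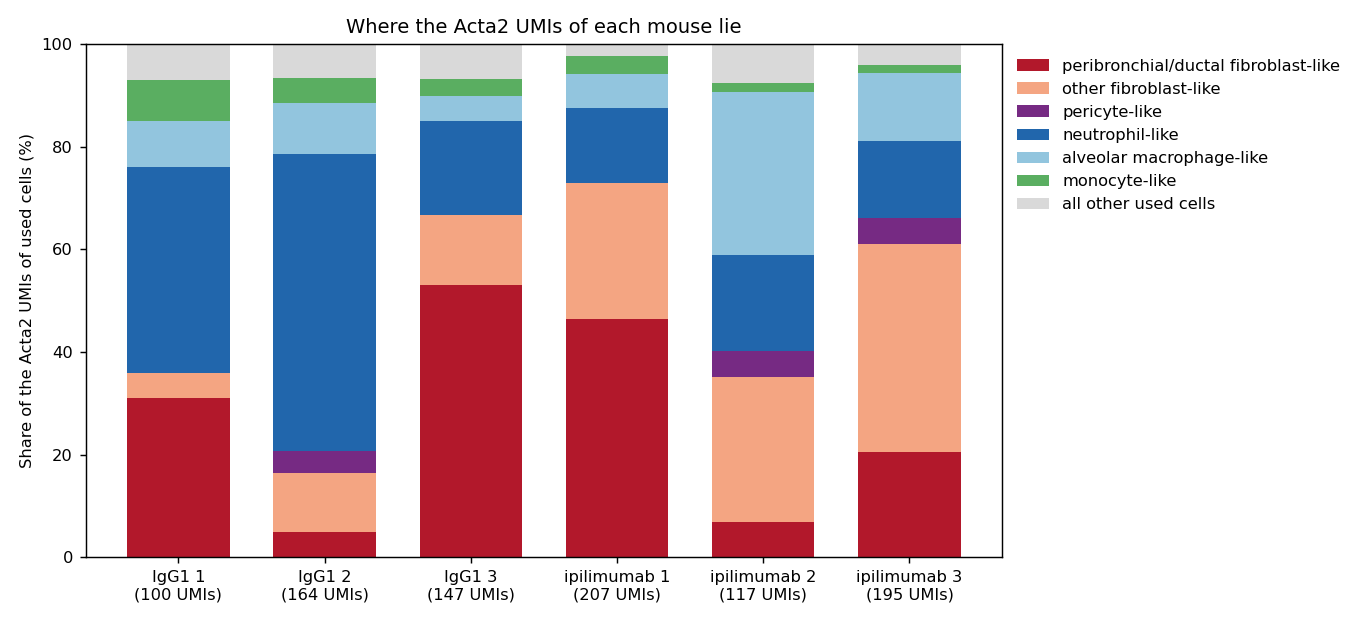
Share of the Acta2 UMIs of used cells (vertical axis, percent) in each of the 6 mice, split by cell class, with the number of UMIs under each bar. The fibroblast-like share ran from 16.5% in IgG1 mouse 2 to 72.9% in ipilimumab mouse 1, and the neutrophil-like share from 14.5% to 57.9%.

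No cluster was named smooth muscle-like, and 0 of the 20 cells called mural-like were of that kind. The 20 were all pericyte-like, with 3, 2 and 0 in IgG1 mice 1, 2 and 3 and 2, 8 and 5 in ipilimumab mice 1, 2 and 3. They had UMIs of 10 of 12 pericyte markers in at least 10% of cells, among them Notch3 (85% of cells), Pdgfrb (85%) and Trpc6 (90%), while Rgs5, another usual pericyte marker, was at 0. Of 15 smooth muscle markers, 9 were found in at least 10% of them, among them Mylk (85%), Cald1 (85%), Smtn (45%) and Myocd (15%). That list summed to 2494 CPM, while Pln, Actc1, Hspb7, Casq2 and Itih4 were at 0. Whether some of the 20 cells are smooth muscle was not tested. With cells called by the UMI threshold alone, no cluster was named pericyte-like. Fibroblast-like cells numbered 42, 48 and 87 in the IgG1 mice and 205, 55 and 106 in the ipilimumab mice. They fell into 270 adventitial-like cells (the fibroblasts around larger vessels and airways), 111 alveolar-like cells (those of the gas-exchange walls), 61 cells like peribronchial or alveolar duct fibroblasts, and 101 of unclear subtype, of which 88 came from ipilimumab mouse 1. Those 88 had a median of 1068.5 UMIs per cell. The 101 cells also carried markers of other lineages: 7 of 8 B cell markers were found in at least 10% of them, among them Ebf1 (53%), Ighm (40%) and Cd79a (34%), as were 3 of 9 T cell markers, and S100a8 and S100a9 in 18% and 21%. The B cell markers summed to 1964 CPM there, but this sum does not measure B cell content. Ebf1 was also found in 95% of pericyte-like and 75% of adventitial fibroblast-like cells, where the list summed to 3287 and 909 CPM. Ighm and Cd79a were found in 5% and 5% of those pericyte-like and in 4% and 3% of those adventitial cells. The place of the 101 cells among fibroblast-like cells is uncertain.

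The 61 peribronchial or ductal fibroblast-like cells carried the highest Acta2 level of any class with the mice pooled, though not in each mouse. All 8 markers of that class were found in at least 10% of them, with Hhip in 100%, Enpp2 in 98%, Cdh4 in 90% and Aspn in 87%. Of 15 smooth muscle markers, 7 were found in at least 10%, among them Mylk (84%), Cald1 (84%), Tpm2 (66%) and Myocd, which encodes myocardin (57%). Pln, Actc1, Casq2 and Pcp4l1, which mark mature smooth muscle, were at 0. Of 9 markers of fibrotic fibroblasts, 3 were found in at least 10% of cells, Col12a1 (57%), Sfrp1 (46%) and Tnc (38%), and 3 were at 0, Cthrc1, Postn and Adam12. Some of these markers were not particular to this class. Alveolar fibroblast-like cells had 6 of the 15 smooth muscle markers in at least 10% of cells. Among them were Mylk (91%), Cald1 (84%) and Tpm2 (45%), while Myocd was at 0%. The list summed to 1791 CPM there, against 1880 CPM in peribronchial or ductal cells. It includes Npnt, which also served as an alveolar fibroblast marker. Npnt was found in 72% of alveolar and 5% of peribronchial or ductal cells, so the sums do not compare smooth muscle content alone. Alveolar fibroblast-like cells also had 3 of the 9 fibrotic markers, Sfrp1 (50%), Col12a1 (25%) and Tnc (14%). Whether some of the peribronchial or ductal cells are smooth muscle was not tested. Acta2 stood at 797, 333 and 483 CPM in IgG1 mice 1, 2 and 3 and at 676, 306 and 466 CPM in ipilimumab mice 1, 2 and 3, so the groups overlapped. These levels rest on 31, 8 and 78 UMIs and 96, 8 and 40 UMIs, and without the single highest cell of each mouse they were 167, 62.4 and 447 CPM and 513, 245 and 382 CPM. IgG1 mouse 2 then stood below the alveolar fibroblast-like cells of the same mouse with all of these kept (75.1 CPM). It stood above them with their own highest cell left out as well (47.3 CPM).

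Other fibroblast-like cells held less. Alveolar fibroblast-like cells had 97 Acta2 UMIs, at 16.1, 75.1 and 17.8 CPM in the IgG1 mice and 70.9, 40.4 and 96.1 CPM in the ipilimumab mice. Adventitial fibroblast-like cells had 78 UMIs, at 16.2, 22.0 and 13.6 CPM and 7.5, 24.7 and 83.9 CPM. The highest of these adventitial values came from 1 cell of ipilimumab mouse 3 that held 43 Acta2 UMIs, the most of any cell, and without that cell this mouse stood at 13.9 CPM. That cell had 33048 UMIs, of which 40 were of Pi16, an adventitial fibroblast marker, 109 of Col1a1, 3 of Tagln and 0 of Myh11. The 101 cells of unclear subtype held 36 Acta2 UMIs, and 30 of them were in 2 cells with 19 and 11 UMIs.

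Pericyte-like cells held 23 Acta2 UMIs in 4 of 20 cells (20%, 95% Wilson interval 8.07% to 41.6%), with 7, 6 and 10 UMIs in IgG1 mouse 2 and ipilimumab mice 2 and 3 and 0 in IgG1 mouse 1 and ipilimumab mouse 1. Endothelial-like cells held 5 UMIs in 1102 cells, 4 of them in general capillary-like cells and 1 in lymphatic-like cells. The 366 aerocyte-like cells, capillary cells specialised for gas exchange, held 0, which allows a level of up to 1.38 CPM (3 UMIs over the class). These intervals and limits cover counting error only. The order of pooled levels was therefore 546 CPM in peribronchial or ductal, 237 in pericyte-like, 134 in fibroblast-like cells of unclear subtype, 63.7 in alveolar, 35.9 in adventitial fibroblast-like and 0.919 in endothelial-like cells. The mice of neighbouring classes overlapped from the first to the fifth of these. In ipilimumab mouse 2 the unclear cells stood at 599 CPM, from 1 cell, above peribronchial or ductal cells, and in IgG1 mouse 2 the pericyte-like cells stood at 417 CPM, also above them. The endothelial-like level was below that of every fibroblast subtype with a name in each mouse.

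**Figure D2:**
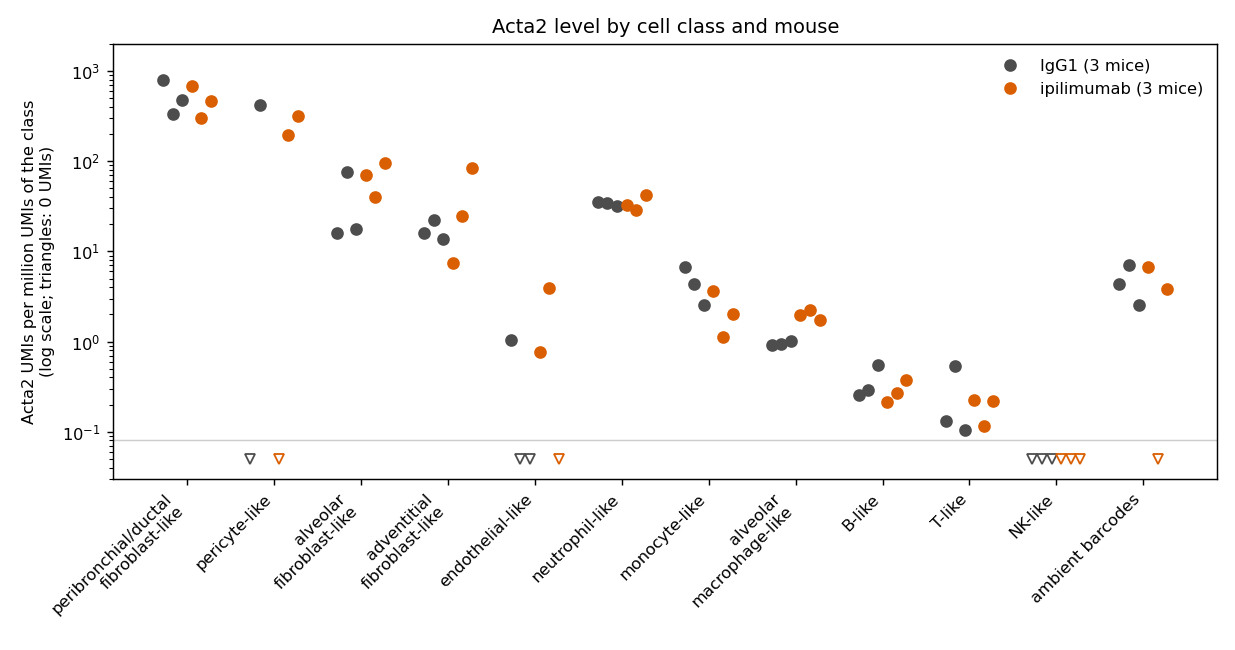
Acta2 level per mouse (CPM, relative to the UMIs of the class, log scale) in each cell class and in ambient barcodes. Each point is 1 mouse and triangles under the line mark 0 UMIs. Neutrophil-like cells sit between 28.6 and 41.7 CPM in the 6 mice, above the ambient barcodes at 0 to 7.10 CPM.

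In the edgeR quasi-likelihood test on UMIs summed per mouse, with mouse as a block and the Benjamini-Hochberg adjustment over 10431 genes, Acta2 was higher in fibroblast-like than in endothelial-like cells by 6.69 ± 0.38 (SE) on the log2 scale (adjusted p = 7.71e-11). Of all genes, 58.6% were called in either direction and 30.7% higher in fibroblast-like cells (adjusted p under 0.05 and a log2 difference over 0.3), so a call in this direction was common. Without ipilimumab mouse 2, which held 3 of the 5 endothelial UMIs, the difference was 7.66. Within fibroblast-like cells, 4 mice had at least 5 peribronchial or ductal cells, IgG1 mice 1 and 3 and ipilimumab mice 1 and 3. In those mice Acta2 was 3.79 ± 0.38 higher in them than in the other fibroblast-like cells (adjusted p = 1.84e-06 over 6364 genes, of which 6.99% were called higher). The 7 genes were held out when the clusters were drawn and named, but genes that vary with them were not, and the p-values between classes do not allow for that. Mural-like against fibroblast-like cells could be set side by side in ipilimumab mice 2 and 3 alone. Acta2 differed by 0.68 ± 0.52 there (adjusted p = 0.4), with a 95% interval of -0.33 to 1.70, beside a median over all genes of -1.12.

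Neutrophil-like cells, which were not among the cells that this gene marks, held Acta2 at a low and even level. They had UMIs of all 7 neutrophil markers, with S100a8 and S100a9 in 99% of cells. Acta2 stood at 35.7, 34.4 and 31.9 CPM in IgG1 mice 1, 2 and 3 and at 32.4, 28.6 and 41.7 CPM in ipilimumab mice 1, 2 and 3, from 40, 95, 27, 30, 22 and 29 UMIs. The spread was narrow in both groups, and the groups overlapped. A UMI was found in 212 of 1840 cells (11.5%, 95% interval 10.1% to 13.1%), and no cell held more than 3. In B-like cells, a class not known to make smooth muscle actin, 17 of 8570 cells had a UMI (0.198%), with a median of 5583 UMIs per cell against 3816 in neutrophil-like cells. With each cell thinned to 1000 UMIs these shares were 2.68% and 0.0118%.

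Ambient RNA, free RNA that enters every droplet, was read from the barcodes of UMI ranks 45000 to 90000. Acta2 had 3, 6 and 1 UMIs there in the IgG1 mice and 8, 0 and 3 in the ipilimumab mice, or 4.32, 7.10, 2.53, 6.71, 0 and 3.79 CPM. The neutrophil-like level was above the ambient level in 6 of 6 mice (34.1 ± 4.44 against 4.07 ± 2.65 CPM, SD, n = 6; exact paired permutation test, two-sided, p = 0.0312, the smallest that 6 pairs allow). Adjusted over the 6 such comparisons made, all of them chosen after values were seen, p was 0.0938. Monocyte-like cells, at 3.40 ± 1.97 CPM, were above ambient barcodes in 3 of 6 mice (exact permutation p = 0.5). Alveolar macrophage-like cells, at 1.46 ± 0.587 CPM, were above ambient barcodes in 1 of 6 (exact permutation p = 0.125), and 11 of their 109 UMIs were in 1 barcode of 780 UMIs that also held 11 Tagln UMIs. These are levels of barcodes that hold ambient RNA alone, not of the ambient RNA within cells. In B-, T- and NK-like cells the ambient share of UMIs was estimated at 16.3% in IgG1 mouse 1 and at 0.510% to 4.32% in the others. How much of the Acta2 of each class was ambient was not tested. NK-like cells held 0 Acta2 UMIs in 1513 cells, which allows up to 0.296 CPM, so the neutrophil-like level was at least 115-fold higher.

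Fitted over all genes by the same edgeR test, Acta2 was 7.38 ± 0.32 higher on the log2 scale in neutrophil-like than in B-like cells (adjusted p = 1.00e-19), where 77.4% of 13072 genes were called and 30.2% were called higher. It was 3.42 ± 0.45 higher in monocyte-like and 2.23 ± 0.37 higher in alveolar macrophage-like cells (adjusted p = 6.45e-08 and 2.43e-06, with 69.4% and 79.7% of genes called and 33.2% and 41.4% called higher). The other contractile genes were near 0 in neutrophil-like cells. Of 272 UMIs of the 7 genes there, 89.3% were Acta2, against 27.2% in fibroblast-like cells and 28.8% in ambient barcodes. A high Acta2 part was not particular to neutrophil-like cells. It was 70.2% of 47 UMIs in monocyte-like and 52.2% of 209 UMIs in alveolar macrophage-like cells. Of the 212 neutrophil-like cells with Acta2, 2 had a UMI of any other of the 7 genes (0.943%), as did 1.60% of the 1628 without it. Of the smooth muscle markers, 0 of 15 reached 10% of neutrophil-like cells and 8 were at 0, with 8.43 CPM summed over the list against 1880 CPM in peribronchial or ductal cells. Of the pericyte markers, 0 of 12 reached 10% of cells and their sum was 2.67 CPM.

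Actins are close in sequence, and Actb, the cytoplasmic β-actin, was high in the myeloid classes, so Acta2 was also read per Actb UMI. Neutrophil-like cells had 4.65 Acta2 UMIs per 1000 of Actb, alveolar macrophage-like cells 0.179, monocyte-like cells 0.616, B-like cells 0.131, T-like cells 0.0660 and ambient barcodes 1.32. Actb itself, the denominator of this ratio, was at 7345 CPM in neutrophil-like and 8390 CPM in alveolar macrophage-like cells. The ratio was 225 in peribronchial or ductal, 139 in pericyte-like, 26.5 in alveolar and 13.8 in adventitial fibroblast-like cells. Whether reads of other actins enter the Acta2 counts was not tested.

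The mix of classes among cells with Acta2 changed with the number of Acta2 UMIs required, a number not adjusted for depth. Most fibroblast-like cells had no Acta2 UMI (106 of 543 had at least 1). Of 496 cells with at least 1, 212 were neutrophil-like and 106 fibroblast-like. Of 58 cells with at least 3, 48 were fibroblast-like, 29 of these peribronchial or ductal and 14 alveolar, and 6 were neutrophil-like. Of 16 cells with at least 10, 9 were peribronchial or ductal, 2 alveolar, 2 of unclear subtype, 1 adventitial, 1 pericyte-like and 1 alveolar macrophage-like. Of these 16 cells, the unclear one of IgG1 mouse 3 held 11 Acta2, 22 Tagln and 27 Myh11 UMIs with 97 of Hhip and 11 of Myocd. The shares of cells with a UMI were 72.1% in peribronchial or ductal (95% interval 59.8% to 81.8%), 27.0% in alveolar (19.6% to 36.0%) and 8.89% in adventitial fibroblast-like cells (6.05% to 12.9%), at medians of 7485, 13621 and 5757 UMIs per cell. Thinned to 1000 UMIs, they were 37.3%, 4.04% and 0.889%.

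**Figure D3:**
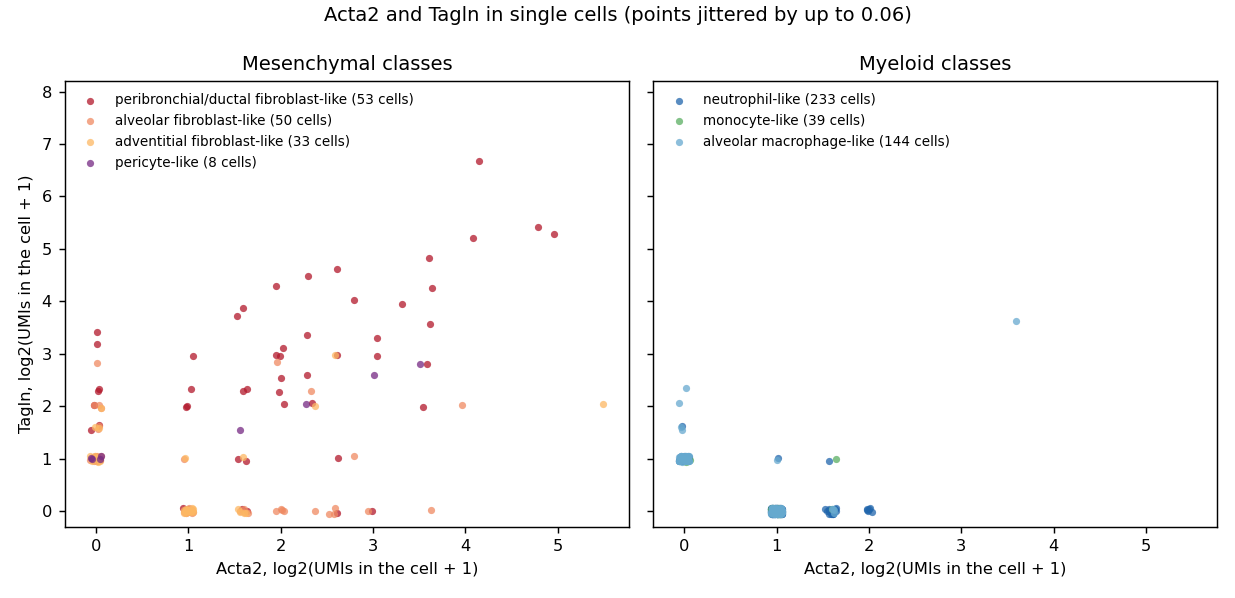
Acta2 and Tagln UMIs of single cells (both axes log2 of UMIs plus 1, points jittered) that held at least 1 UMI of either gene, mesenchymal classes on the left and myeloid classes on the right. Peribronchial or ductal cells spread along both axes, while neutrophil-like cells lie along the Acta2 axis with no cell above 3 UMIs.

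Actg2, the smooth muscle γ-actin of gut and airway muscle (ENSMUSG00000059430; chromosome 6, 83512905 to 83536265, minus strand), gave 121 UMIs over all barcodes. Peribronchial or ductal fibroblast-like cells held 17 of them, 4, 0 and 8 in the IgG1 mice and 4, 0 and 1 in the ipilimumab mice, and pericyte-like cells held 5. Endothelial-like cells held 0, so the level in fibroblast-like cells was at least 8.17-fold higher. The largest share lay elsewhere: T-like cells held 69 UMIs in 30 of 5308 cells, with up to 9 in a cell, and these were 7, 3 and 21 UMIs in IgG1 mice 1, 2 and 3 and 18, 14 and 6 in ipilimumab mice 1, 2 and 3. In B-like cells there were 5 UMIs in 8570 cells. The T-like level was above the B-like level in 6 of 6 mice (1.30 ± 0.745 against 0.0991 ± 0.0532 CPM, exact paired permutation p = 0.0312, adjusted p = 0.0938 over 6 comparisons). A cluster of 1232 T-like cells held 47 of the 69 UMIs, in 19 cells from 6 of 6 mice.

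Transgelin, the product of Tagln (ENSMUSG00000032085; chromosome 9, 45929619 to 45936058, minus strand), binds actin filaments and is an early marker of the smooth muscle program. Its locus overlaps Pcsk7 and Gm48529 on the other strand. Peribronchial or ductal cells held 537 of the 903 Tagln UMIs of used cells, at 1465, 125 and 961 CPM in the IgG1 mice and 1796, 573 and 606 CPM in the ipilimumab mice. The lowest and the highest mouse differed more than for Acta2 in the same cells, and 1 cell held 100 UMIs. Tagln was at 206 CPM in pericyte-like, 31.5 in alveolar and 12.9 in adventitial fibroblast-like cells, and at 3.37 CPM in neutrophil-like cells against 2.14 in ambient barcodes. It was 5.57 ± 0.45 higher in peribronchial or ductal than in other fibroblast-like cells (edgeR adjusted p = 3.09e-07). Of 44 peribronchial or ductal cells with Acta2, 37 also had Tagln (84.1%), against 9 of 17 without Acta2 (52.9%), with medians of 8107 and 6042 UMIs per cell.

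Calponin 1, from Cnn1 (ENSMUSG00000001349; chromosome 9, 22099216 to 22109630, plus strand), restrains actomyosin in mature smooth muscle. It gave 27 UMIs over all barcodes and 21 in used cells. Of these, 7 were in adventitial fibroblast-like cells and 7 in T-like cells, with 0 in the peribronchial or ductal and 0 in the pericyte-like cells. The counts are too low to place this gene in any class.

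Myosin heavy chain 11 is the motor of smooth muscle contraction (Myh11, ENSMUSG00000018830; chromosome 16, 14194535 to 14291372, minus strand). Unlike Acta2, Myh11 was highest in pericyte-like cells, where 16 of 20 cells had a UMI, with 147 and 715 CPM in IgG1 mice 1 and 2 and 1205, 746 and 474 CPM in ipilimumab mice 1, 2 and 3. In peribronchial or ductal cells it stood at 103, 250 and 143 CPM and at 197, 420 and 140 CPM, so these classes overlapped. Alveolar and adventitial fibroblast-like cells held 2 UMIs each. In ipilimumab mice 2 and 3 it was 4.58 ± 0.54 higher in mural-like than in fibroblast-like cells (edgeR adjusted p = 1.35e-05, with 3.39% of genes called higher). In peribronchial or ductal against other fibroblast-like cells it was 3.99 ± 0.64 higher (adjusted p = 2.57e-04), 5.62 without IgG1 mouse 3, where 1 other cell held 27 UMIs, and 3.19 without ipilimumab mouse 1.

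Myh11 was also found in endothelium. Aerocyte-like cells held 43 UMIs in 27 of 366 cells (7.38%), at 6.37, 64.3 and 30.2 CPM in IgG1 mice 1, 2 and 3 and 14.8, 0 and 21.8 CPM in ipilimumab mice 1, 2 and 3. General capillary-like cells stood at 4.38 CPM and ambient barcodes at 4.28 CPM. The aerocyte-like level was above the capillary-like level in 4 of 6 mice (22.9 ± 22.9 against 3.89 ± 2.69 CPM, exact paired permutation p = 0.125, adjusted p = 0.188). Acta2 and Tagln were at 0 in the same aerocyte-like cells, and of 12 pericyte markers 0 reached 10% of them and 8 were at 0. Of 15 smooth muscle markers, 2 reached 10% of them, Mylk (63%) and Cald1 (68%).

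The regulatory light chain Myl9 (ENSMUSG00000067818; chromosome 2, 156775420 to 156781658, plus strand), which switches smooth muscle and non-muscle myosin on when phosphorylated, was the most widely spread of the 7 over fibroblast subtypes. It stood at 174 CPM in peribronchial or ductal, 43.3 in alveolar and 40.1 in adventitial fibroblast-like cells and at 227 in pericyte-like cells, with a UMI in 57.4%, 24.3%, 20.7% and 55.0% of cells. The difference between peribronchial or ductal and other fibroblast-like cells was 1.99 ± 0.34 (edgeR adjusted p = 4.13e-04). Mural-like cells were 1.90 ± 0.55 higher than fibroblast-like cells (adjusted p = 0.0258), a call lost without ipilimumab mouse 2 (0.85, adjusted p = 0.534). Of 30 alveolar fibroblast-like cells with Acta2, 18 had Myl9 (60.0%, 95% interval 42.3% to 75.4%), against 9 of 81 without it (11.1%, 5.96% to 19.8%), at medians of 18844 and 11320 UMIs per cell. Tagln went the other way in the same cells, with 5 of 30 (16.7%, 7.34% to 33.6%) against 20 of 81 (24.7%, 16.6% to 35.1%), intervals that overlap, and Des was found in 33.3% against 22.2%.

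Desmin, the muscle intermediate filament (Des, ENSMUSG00000026208; chromosome 1, 75360329 to 75368579, plus strand, overlapping Gm15179 on the other strand), marked both contractile classes. It stood at 385, 208 and 242 CPM in peribronchial or ductal cells of the IgG1 mice and at 387, 229 and 210 CPM of the ipilimumab mice, a narrower range, as highest over lowest mouse, than Acta2, Tagln, Myh11 or Myl9 had in these cells. Pericyte-like cells stood at 402 CPM, with a UMI in 70.0% of cells against 77.0% of peribronchial or ductal cells. Des was 3.79 ± 0.34 higher in peribronchial or ductal than in other fibroblast-like cells and 3.32 ± 0.56 higher in mural-like than in fibroblast-like cells (edgeR adjusted p = 5.97e-07 and 4.97e-04). In neutrophil-like and T-like cells it was at 0.

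Counted together, 5 of 5 genes that could be tested were called higher in peribronchial or ductal than in other fibroblast-like cells (6.99% of all genes), and 6 of 6 were called higher in fibroblast-like than in endothelial-like cells (30.7% of all genes). Of mural-like against fibroblast-like cells, 3 of 6 were called higher (3.39% of all genes), namely Myh11, Des and Myl9, and Acta2, Tagln and Actg2 were not (0.71 ± 0.91 for Tagln and 4.43 ± 1.47 for Actg2, adjusted p = 0.637 and 0.0668). Cnn1 passed no filter on low counts in these comparisons. A gene can pass that filter through the class where it is high alone. In other fibroblast-like cells Myh11 stood at 0 to 43.5, Tagln at 0 to 57.7 and Des at 13.5 to 31.2 CPM by mouse. In endothelial-like cells Acta2 stood at 0 to 3.89 CPM by mouse and Actg2 at 0. The counts of 5 of 5, 6 of 6 and 3 of 6 were thus in part set by the filter and are no support of their own.

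**Figure D4:**
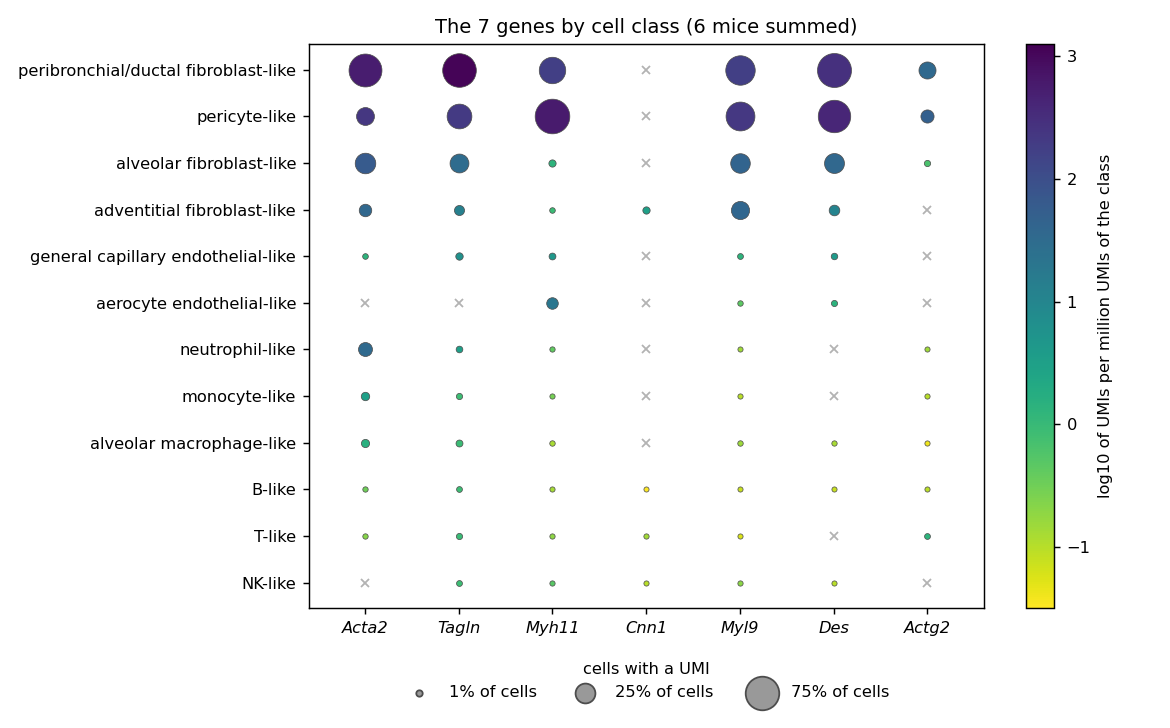
The 7 genes (columns) in 12 cell classes (rows), 6 mice summed. Colour gives log10 of CPM (relative to the UMIs of the class), circle size the share of cells with a UMI, and a cross marks 0 UMIs. Peribronchial or ductal and pericyte-like cells have the darkest circles for every gene but Cnn1, and among the 7 genes neutrophil-like cells have UMIs of Acta2 in 11.5% of cells and of Tagln in 1.25%.

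Other genes of the pathway were read from lists set by function. Several of their genes also served as markers when clusters were named, among them Myocd, Notch3, Synpo2, Tpm2, Tcf21 and Tnc, so that their differences between classes are no independent result. Between peribronchial or ductal and other fibroblast-like cells, 5 of 15 contractile machinery genes tested were higher and 1 lower, where 14.5% of all genes were called in either direction. The 5 were Pdlim3 (6.12 ± 0.56), Synpo2 (3.78 ± 0.41), Ppp1r12a (1.82 ± 0.29), Tpm2 (1.55 ± 0.34) and Tpm1 (1.48 ± 0.32), and the lower one was the actin crosslinker Actn1 (-2.20 ± 0.56). Of 18 regulators tested, 3 were higher, namely Myocd, Tead1 (1.25 ± 0.34) and Rock2 (1.01 ± 0.31), and 2 lower, Tgfbr2 (-1.79 ± 0.32) and Tcf21. Myocd stood at 383 CPM in peribronchial or ductal cells, 144 in pericyte-like cells, 0.461 in adventitial and 0 in alveolar fibroblast-like cells. These genes were named after their values were seen.

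The matrix genes of activated fibroblasts went the other way. Of 11 tested, 7 were lower in peribronchial or ductal than in other fibroblast-like cells and 1 was higher, Tnc, which encodes tenascin C (3.76 ± 0.46), where 14.5% of all genes were called in either direction. Col1a1, the main chain of type I collagen, stood at 523 CPM in peribronchial or ductal cells against 1313 in alveolar and 1819 in adventitial fibroblast-like cells (-1.47 ± 0.28, edgeR adjusted p = 0.00131). Fn1 (-6.02 ± 0.50), Lox (-3.13 ± 0.56) and Col1a2 (-2.53 ± 0.27) were also lower. The cells with the highest pooled Acta2 level thus had less Col1a1 per UMI than the other fibroblast-like cells. Of the non-muscle paralogs of the 7 genes, 11 were tested, Myh9 was higher (0.94 ± 0.31) and Actg1 lower (-1.13 ± 0.34), a share near that over all genes. The matrix genes and paralogs named here were also named after their values were seen. The list medians were 0.66 for contractile machinery, -0.07 for regulators, -0.32 for paralogs and -1.47 for matrix genes, beside -0.09 over all genes.

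The comparison of treatments asks whether ipilimumab changed the contractile genes of the injured lung. In fibroblast-like cells Acta2 stood at 97.2, 53.7 and 125 CPM in IgG1 mice 1, 2 and 3 and at 123, 75.1 and 118 CPM in ipilimumab mice 1, 2 and 3. The groups overlapped, and the log2 difference (ipilimumab against IgG1) was 0.19 ± 0.30 (edgeR adjusted p = 0.952, 95% interval -0.39 to 0.78). Of 7706 genes, 0 (0.0%) were called, while 481 had an unadjusted p under 0.05 and DESeq2 called 12. Myl9 differed by -0.56 ± 0.29, Myh11 by -0.75 ± 0.52, Des by -0.29 ± 0.39 and Tagln by -0.06 ± 0.69, with adjusted p from 0.829 to 0.997. Actg2 and Cnn1 were below the filter. The peribronchial or ductal cells made up 5 of 42, 3 of 48 and 20 of 87 fibroblast-like cells in the IgG1 mice and 19 of 205, 3 of 55 and 11 of 106 in the ipilimumab mice, and they moved the Acta2 value. Without them, a choice made after the data were seen, Acta2 stood at 15.1, 39.7 and 32.2 CPM against 50.5, 63.5 and 85.5 CPM, groups that did not overlap, and the difference was 1.13 ± 0.35 (adjusted p = 0.390). With the single highest cell of each mouse left out as well, the levels were 9.81, 30 and 15 CPM against 37.4, 27.3 and 40.4 CPM, and the groups overlapped.

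In the peribronchial or ductal cells themselves, 2 mice per group had enough cells, and Acta2 differed by -0.09 ± 0.41 (edgeR adjusted p = 0.999). Tagln differed by 0.04 ± 0.51, Myh11 by 0.41 ± 0.47, Myl9 by -0.35 ± 0.50 and Des by 0.03 ± 0.48. Of 2165 genes 0 (0.0%) were called, and 120 had an unadjusted p under 0.05, with 3 called by DESeq2. In neutrophil-like cells Acta2 differed by -0.03 ± 0.24 (adjusted p = 0.999, 95% interval -0.50 to 0.43), again with 0 of 5232 genes (0.0%) called, 219 at an unadjusted p under 0.05. Over all cells of a mouse together Acta2 differed by 0.20 ± 0.30 (adjusted p = 0.942), Tagln by 0.38 ± 0.70, Des by 0.55 ± 0.51, Myl9 by 0.28 ± 0.39, Myh11 by 0.15 ± 0.47 and Actg2 by 0.07 ± 0.65. Of 17459 genes there 0 (0.0%) were called, 846 had an unadjusted p under 0.05 and DESeq2 called 35. Without the neutrophil-like cells, a choice made after the data were seen, Acta2 over all cells differed by 0.63 ± 0.39 (adjusted p = 0.934), and without ipilimumab mouse 1 by -0.02. In endothelial-like cells and ambient barcodes Acta2 was below the filter on low counts, and 0 of 8462 and 0 of 9056 genes (0.0% in each) were called, with 755 and 320 at an unadjusted p under 0.05 and 32 and 4 called by DESeq2. No treatment test could be made in mural-like cells, because no IgG1 mouse had 5 of them.

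**Figure D5:**
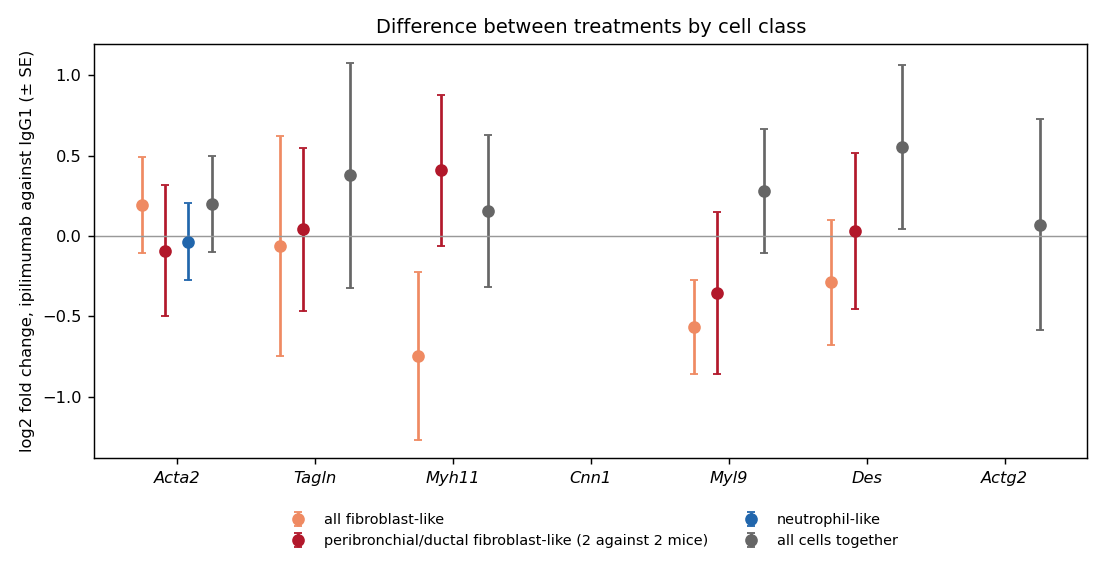
Log2 difference between treatments (ipilimumab against IgG1, vertical axis, bars ± SE) of each gene in fibroblast-like, peribronchial or ductal, neutrophil-like and all cells. Points are missing where a gene was below the filter on low counts. No gene was called, and the Acta2 points lie between -0.09 and 0.20.

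Over mice, the fibroblast-like share of the Acta2 UMIs of used cells was 36.0%, 16.5% and 66.7% with IgG1 and 72.9%, 35.0% and 61% with ipilimumab (39.7 ± 25.3% against 56.3 ± 19.4%, SD, n = 3; exact permutation p = 0.5, two-sided). With 3 mice against 3 the exact test allows no p below 0.1. The neutrophil-like share was 40.0%, 57.9% and 18.4% against 14.5%, 18.8% and 14.9% (38.8 ± 19.8% against 16.1 ± 2.39%, exact permutation p = 0.200), groups that overlapped at IgG1 mouse 3. They did not overlap with doublets kept or with cells called by the UMI threshold alone (exact permutation p = 0.1 in both), and under the threshold alone the means were 28.3% and 7.53%. Neutrophil-like cells made up 6.83%, 17% and 5.88% of cells with IgG1 and 5.84%, 4.65% and 4.70% with ipilimumab, which do not overlap (exact permutation p = 0.1, the smallest possible). The mural-like share of Acta2 was 0%, 4.27% and 0% against 0%, 5.13% and 5.13% (exact permutation p = 0.4), and the share of Acta2 outside used cells was 14.0 ± 2.40% against 15 ± 5.58% (exact permutation p = 0.900). Fibroblast-like cells made up 1.59 ± 0.934% and 2.90 ± 1.69% of cells and mural-like cells 0.0388 ± 0.0353% and 0.123 ± 0.0769% (exact permutation p = 0.3 for both). The share of fibroblast-like cells with an Acta2 UMI, each cell thinned to 1000 UMIs, was 5.26%, 2.27% and 14.1% against 9.70%, 4.17% and 6.86% (exact permutation p = 1).

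No gene of the lists was called between treatments either. In fibroblast-like cells 0 of 15 contractile machinery genes, 0 of 18 regulators, 0 of 11 paralogs and 0 of 13 matrix genes tested were called, with medians of 0.07, 0.06, 0.05 and -0.05 beside -0.01 over all genes. The gene with the smallest p in each list was Pdlim3 (-1.16 ± 0.53), the growth factor Ccn2 (-0.79 ± 0.31), non-muscle myosin Myh10 (0.67 ± 0.23) and the fibroblast protease Fap (-1.34 ± 0.56), with edgeR adjusted p from 0.635 to 0.786.

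Across 22 named classes, each summed over the mice, the pattern of Acta2 (Pearson r of log2(CPM + 10)) was closest to Tagln among the 7 genes (r = 0.95), then Myl9 (0.94), Des (0.92), Actg2 (0.83) and Myh11 (0.82), and Cnn1 had no such likeness (0.08). Of 15774 genes with at least 100 UMIs outside the 7, the nearest to Acta2 were Kcnb2 (0.93), Adcy2 (0.93), Tubb4a (0.92), Nrxn3 (0.92) and Csmd1 (0.92). Nearest to Tagln were Nrxn3, Mustn1 and Myocd, to Myh11 Nrxn3, Myocd and Bdnf, to Myl9 Adcy2, Tubb4a and Tbx4, to Des Bdnf, Tnfrsf19 and S1pr3, and to Actg2 Myocd, Bdnf and Kcnk3, with r from 0.91 to 0.98. The classes share libraries and differ in depth, so these are descriptions.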

How the data were processed

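Single-cell suspensions of right lungs from 6 mice were sequenced as 6 libraries of 10x Genomics 3' v3.1 chemistry. The authors deposited raw UMI counts per gene and barcode, made with Cell Ranger against mm10 and with no cell filter. The version differed between the sources used here (7.0.0 in the submitters' processing notes), and the steps the study then took to correct for ambient RNA and to cluster are not in these counts. Cells were called again by a UMI threshold plus a test of profiles of at least 500 UMIs against ambient barcodes (false discovery rate 0.01), with at least 200 genes and at most 10% mitochondrial UMIs, and scored doublets were removed. Clusters (scanpy 1.11.5, leidenalg 0.10.2, 2000 variable genes, 10 principal components, resolution 0.8) were drawn without the 7 genes and named "-like" from marker lists.

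For each class, the UMIs of a mouse were added up and the sums fitted with the quasi-likelihood test of edgeR 4.0.16 (TMM, its filter on low counts, Benjamini-Hochberg over all genes of the fit, called at adjusted p under 0.05 and a log2 difference over 0.3). Mice needed at least 5 cells of a class to enter its fit. Single values were compared by exact permutation over mice. DESeq2 1.42.0 and the other alternatives are described under sensitivity to the processing. On simulated counts for fibroblast-like cells the edgeR step recovered 96.2% of 4-fold and 34.2% of 2-fold changes (7733 genes). CPM values (counts-per-million) are relative to the summed UMIs of a class, with no correction for transcript length, so levels were compared between classes and not between genes.

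The 7 genes, the lists and the tests were chosen with earlier results of these data known. Genes of the lists were named by the smallest p in the comparison of treatments, and the nearest genes by the highest Pearson r over classes. Genes named outside these rules are marked as such in the text.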

Additional observations from a re-analysis of the deposited data

How the results depend on the processing

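Of 710 values recomputed under alternative settings, 645 kept their direction and their side of the threshold (or, for counts, stayed within 1.5 times), 33 changed sign, 30 counts moved further, 1 lost and 1 gained a call. The higher Acta2 level of fibroblast-like, peribronchial or ductal, neutrophil-like, monocyte-like and alveolar macrophage-like cells kept its sign and its call in each setting run. The changes of sign were all of differences between treatments, none of which was called, and the cause was not tested. What limits these data is the number of mice and of mesenchymal cells: no treatment test could be made in mural-like cells under any setting, and with cells called by the UMI threshold alone the comparison of mural-like with fibroblast-like cells could not be made either.

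The count of genes called between treatments, 0 in each of the 6 comparisons, was under DESeq2 12 in fibroblast-like, 32 in endothelial-like, 35 in all, 4 in ambient and 3 in peribronchial or ductal cells. With no filter on low counts it was 219 in fibroblast-like cells, 262 in endothelial-like cells, 55 in ambient barcodes, 32 in neutrophil-like and 24 in peribronchial or ductal cells, and Fap in fibroblast-like cells then passed (-1.32, edgeR adjusted p = 0.0392). With doublets kept it was 1 in endothelial-like and 1 in neutrophil-like cells, and Actg2 over all cells stood at -0.0021. Acta2 in peribronchial or ductal cells stood at 0.062 with no filter, and the thinned share of fibroblast-like cells with Acta2 differed by 0.757 percentage points with 30 principal components. Without the peribronchial or ductal cells, Tagln in fibroblast-like cells stood at 0.73. Without the cells of unclear subtype Tagln stood at 0.084 and Myh11 at 0.11. Both choices were made after the data were seen.

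Mice with the same replicate number did not deviate together (correlations of -0.01 to 0.10 in fibroblast-like cells), so the number was not taken as a pairing. With the replicate number as a block, the count of genes called was 1 in fibroblast-like, 2 in endothelial-like, 6 in ambient and 1 in neutrophil-like cells and 0 in all cells, Acta2 in fibroblast-like cells stood at 0.21 and Tagln at 0.16.

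With each mouse left out in turn, the count called ranged from 0 to 10 in fibroblast-like, 0 to 1 in endothelial-like, ambient and neutrophil-like, and 14 to 33 in peribronchial or ductal cells, where 1 arm then held a lone mouse assumed to vary like the others. The 10 came without ipilimumab mouse 3. In mural-like against fibroblast-like cells the count ranged from 623 (without ipilimumab mouse 3) to 1532, and was 683 without ipilimumab mouse 2, beside 1456 with both, and Myl9 ranged from 0.85 to 2.87. Acta2 between treatments ranged from -0.079 to 0.53 in fibroblast-like, -0.018 to 0.42 in all, -0.18 to 0.058 in neutrophil-like and -0.39 to 0.27 in peribronchial or ductal cells. In fibroblast-like cells Tagln ranged from -0.77 to 0.77 and Myh11 from -1.12 to 0.55. Over all cells Tagln ranged from -0.43 to 1.26, Myh11 from -0.17 to 0.86 and Actg2 from -0.39 to 0.98. The difference in the share of cells that were peribronchial or ductal ranged from -0.103 to 0.168, in the thinned share with Acta2 from -2.77 to 3.14, in Acta2 outside used cells from -1.36 to 4.08, and in the Acta2 share of peribronchial or ductal cells from -17.5 to 6.64 percentage points. The difference in the share of fibroblast-like cells, 1.31 percentage points, ranged from 0.403 (without ipilimumab mouse 1) to 2.07 (without ipilimumab mouse 2). In their share of Acta2, 16.6 points, it ranged from 5.01 (without IgG1 mouse 2) to 30.1 (without IgG1 mouse 3), with 8.32 and 27.3 without ipilimumab mice 1 and 2. For neutrophil-like cells the difference in their share of cells ranged from -6.87 to -1.29 (without IgG1 mouse 2) and in their share of Acta2 from -32.9 to -13.1 (without IgG1 mouse 2).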

Other observations

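The 30 T-like cells with an Actg2 UMI were set beside the other 5278 T-like cells, after the values were seen. Ctla4, the gene of the receptor that ipilimumab binds and which in this strain is partly human, had a UMI in 90.0% of them against 47.5% of the others, and the costimulatory receptor Icos in 93.3% against 56.1%. Foxp3, the regulator of regulatory T cells, had a UMI in 23.3% against 3.96%, and Gata3, the regulator of type 2 helper cells, in 60.0% against 26.7%. Ccr7, a receptor of naive T cells, was found in 63.3% against 64.9%. These cells come from 6 mice and are not replicates, so no test was made.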
